A study of Homo sapiens with 6 samples.

Results

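The genes described here encode the machinery that copies DNA in S phase: the origin licensing factors, the MCM helicase and its activators, the replicative polymerases, the sliding clamp and its loader, lagging strand enzymes, nucleotide synthesis enzymes and chromatin assembly factors. They were chosen by symbol, 42 genes in all, and 41 of them have a row among the 34675 rows of the authors' deposited table. UHRF1, which guides maintenance of DNA methylation behind the fork, has no row under its symbol and was not analysed here. Only 17231 rows carry a symbol, and the others were not searched for it. Whole reads in each library could be recovered for 40 of the 41, and for MCM4 only the means of the conditions are given.

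RNA was sequenced from U2932, an established human cell line derived from a diffuse large B cell lymphoma. The labels give 3 shPRDM11 samples, carrying a short hairpin RNA against PRDM11, and 3 shScramble samples, carrying a scrambled hairpin, all infected and then kept in puromycin for 3 days. PRDM11 is a PR domain regulator of transcription, and the comparison asks what its depletion does to expression. The deposited values compare a condition A with a condition B, called A and B from here on. Neither header nor label says which is the knockdown, so each difference is given as A over B. Nothing in the labels says that samples of a group came from separate cultures, so a p-value here covers only how far these samples vary, possibly for technical reasons.

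Libraries held 28650607 to 43773322 recovered reads. PRDM11 itself had 268, 272 and 323 normalised reads in A, against 565, 516 and 545 in B, a log2 ratio of -0.91 (authors' deposited table, DESeq adjusted p = 1.76e-08). The 7 B cell markers all had rows, and MS4A1 was the highest with a mean of 77768 normalised reads. Their levels summed to 220935 in A and 190296 in B. Among those called was CD79B, named after its values were seen, with a mean of 20659 in A and 15441 in B (log2 ratio 0.42; authors' deposited table, DESeq adjusted p = 0.0226). The 3 T cell markers with a row summed to 25.9 in A and 14 in B. Of the 5 myeloid markers 2 had a mean below 10, and CD33 was the highest at 1028. Of the 4 epithelial markers 2 had a mean below 10, and EPCAM was the highest at 1263. No gene of these 3 lists of other cell types was called.

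Replication origins are licensed in G1, when the origin recognition complex, CDC6 and CDT1 load the MCM2 to MCM7 ring onto DNA. The kinase CDC7 and cyclin E-dependent kinase then help to turn the loaded ring into an active helicase with CDC45 and the GINS complex. Many genes of the pathway are transcribed at the G1 to S transition under E2F factors, so their RNA is high in proliferating cells. Lymphoma lines such as U2932 divide continuously and need this machinery in every cycle.

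All 41 genes were strongly expressed, with means of 1097 normalised reads (POLE2) to 36324 (MCM4), that is, reads divided by the size factor of their library. Per kb of coding length, PCNA, the sliding clamp, was the most abundant with 25906 normalised reads in A and 25489 in B. POLE2, an accessory subunit of polymerase epsilon, was the least abundant with 643 in A and 700 in B, and the span between the highest and the lowest mean level was 38.3-fold. On the same scale 31 of 41 lay above 2156, the median of genes with a mean of 1000 or more. Coding length leaves out untranslated regions, so a gene with long ones appears higher than it is. The order of levels per kb put PCNA, MCM4 and MCM7 at the top and CHAF1B, PRIM1 and POLE2 at the bottom.

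**Figure D1:**
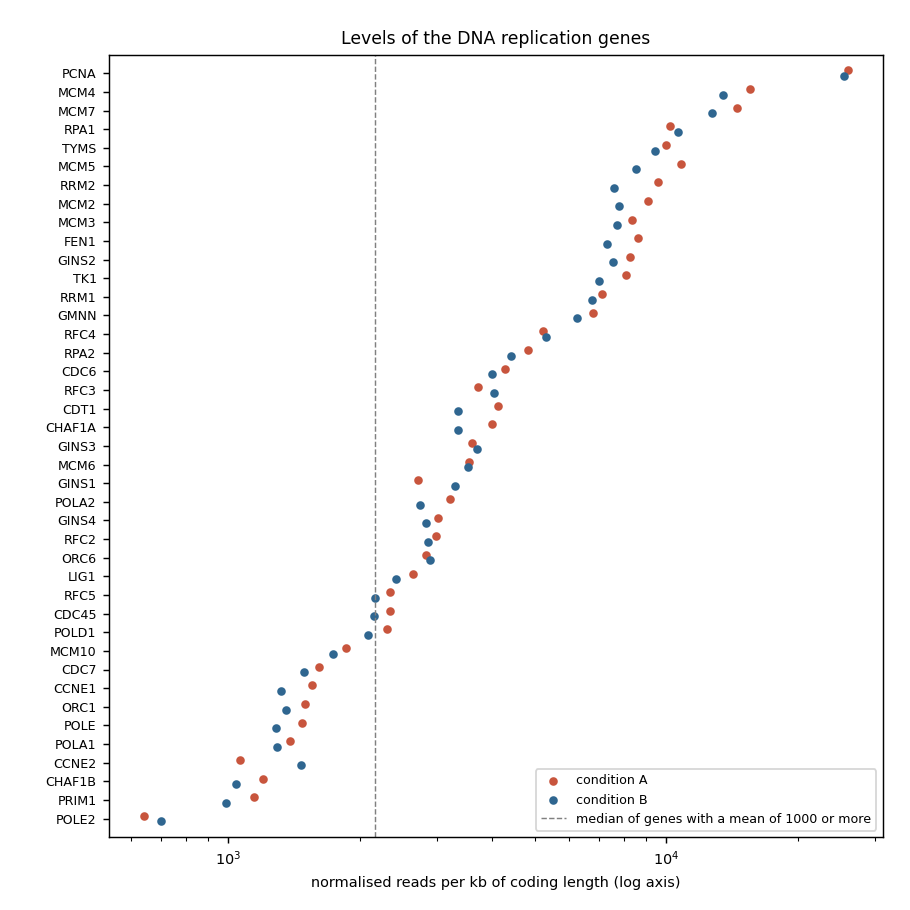
Normalised reads per kb of coding length (log axis) of the 41 DNA replication genes, in falling order of the mean level, in A (red) and B (blue); the dashed line is the median of genes with a mean of 1000 or more. PCNA stands at 25906 in A and 25489 in B, and POLE2 at 643 in A and 700 in B.

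By the authors' deposited table, none of the 41 genes was called different at a DESeq adjusted p of 0.05. Over all rows 2.54% were called, and among the 7172 genes with a mean of 1000 or more, which is the range of these 41, the share was 5.03%. At an unadjusted p of 0.05, 4 were higher in A (RRM2, MCM5, CHAF1A and FEN1) and 2 were lower (CCNE2 and GINS1), 6 of 41 against 18.9% of genes with a mean of 1000 or more. A limma-voom fit to the recovered reads called RRM2 higher and CCNE2 lower among the 40 fitted, against 9.15% of the 17450 genes tested. Those 17450 had a mean of 10 or more and so include genes far below the range of these 41. A share of 0 of 41 in the deposited test and 6 of 41 at the unadjusted p is no larger than that of other genes at this level.

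The log2 ratios lay mostly on one side of 0. They were above 0 in 33 of 41 genes, or 80.5%, with a median of 0.12, quartiles of 0.06 and 0.20 and a range of -0.46 (CCNE2) to 0.34 (MCM5). Genes with a mean of 1000 or more had a median of 0.02 and 54.3% above 0. In 16 of 40 genes all 3 libraries of A lay above all 3 of B, a separation seen in 19.5% of genes with a mean of 1000 or more. In 3 of 40 (CCNE2, GINS1 and POLE2) they all lay below, as in 15.2% of those genes, and in 21 the libraries of the conditions overlapped. The ratios also moved with transcript GC content, with a Pearson correlation of 0.61 across 40 genes. After a correction for it the median was again 0.12, against 0.04 for genes with a mean of 1000 or more. These are bulk samples, so a difference in RNA per cell cannot be told apart from a difference in the share of cells in S phase.

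**Figure D2:**
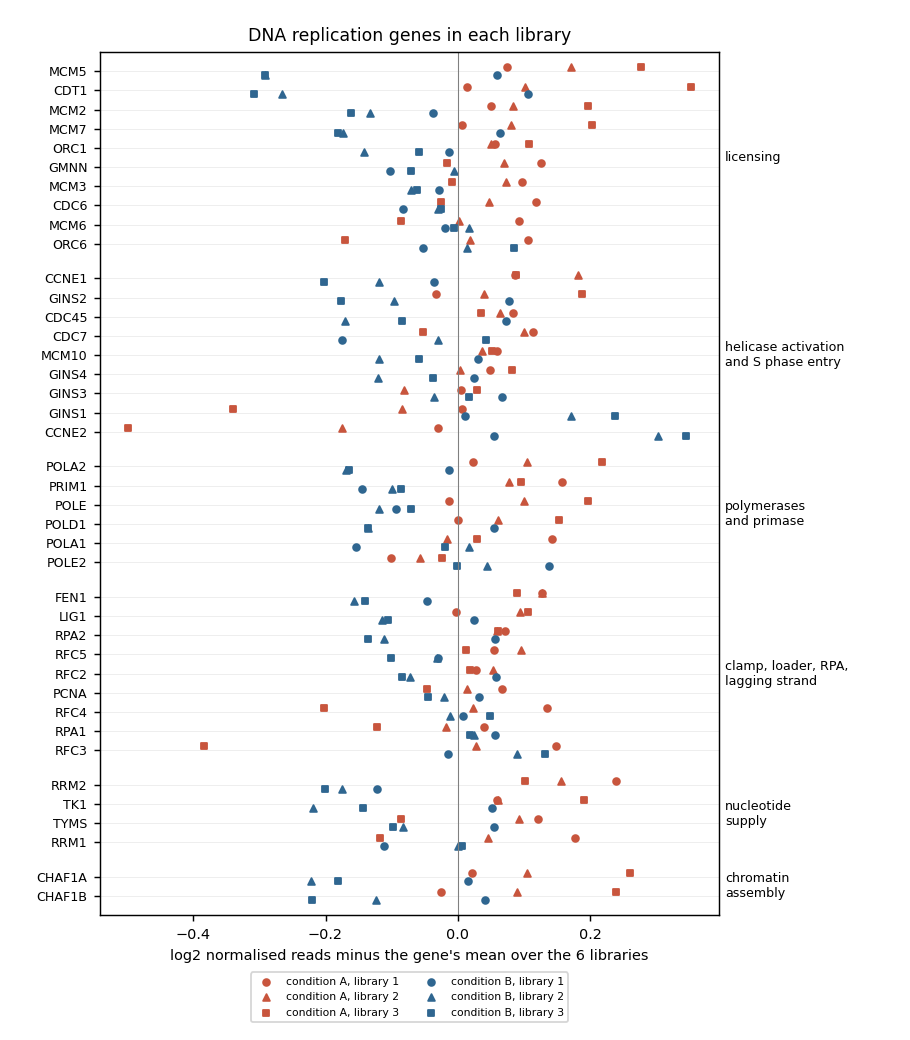
Log2 normalised reads of 40 DNA replication genes in each library, minus the gene's mean over the 6 libraries, grouped by role; red symbols are the libraries of A and blue symbols those of B. The red symbols all lie to the right of the blue ones in 16 genes and all to the left in 3.

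The 6 genes with the smallest p show how far the libraries differed. RRM2, the regulated small subunit of ribonucleotide reductase, had 13761, 12983 and 12505 normalised reads in A, against 10708, 10325 and 10144 in B. The conditions were well apart, and RRM2 averaged 13083 ± 634 in A and 10393 ± 288 in B (SD, n = 3 each). Its log2 ratio was 0.33 (limma-voom standard error 0.071; authors' deposited table, DESeq adjusted p = 0.0875, limma-voom adjusted p = 0.0204). The limma-voom call was lost without library 2 of A and without library 2 or 3 of B, fits in which 372, 383 and 435 genes were called in all, against 1596 with every library. The log2 ratio of RRM2 in those fits was 0.34, 0.33 and 0.32. The coding part of RRM2 spans chr2:10262746-10269510 (hg19).

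CCNE2, the second cyclin E gene, had 1571, 1420 and 1135 normalised reads in A, against 1665, 1978 and 2036 in B. Every library of A was lower, the nearest pair being library 1 of each condition. CCNE2 averaged 1375 ± 222 in A and 1893 ± 200 in B (SD, n = 3 each), a log2 ratio of -0.46 (standard error 0.13; authors' deposited table, DESeq adjusted p = 0.146, limma-voom adjusted p = 0.0463). The limma-voom call was lost without library 2 or 3 of A, and without library 2 or 3 of B. In those fits the log2 ratio of CCNE2 was -0.49, -0.33, -0.43 and -0.41.

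MCM5, a subunit of the MCM ring, had 23110, 24711 and 26585 normalised reads in A, against 22865, 17920 and 17936 in B. Library 1 of B lay just under the lowest library of A, far from the other two of its own condition. The log2 ratio of MCM5 was 0.34 with a standard error of 0.10 (authors' deposited table, DESeq adjusted p = 0.225, limma-voom adjusted p = 0.0608). CHAF1A, the large subunit of chromatin assembly factor 1, showed the same arrangement, with 10837, 11485 and 12790 in A, against 10790, 9157 and 9420 in B. Its log2 ratio was 0.26 (standard error 0.091; authors' deposited table, DESeq adjusted p = 0.453).

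FEN1, the nuclease that removes flaps from Okazaki fragments, had 9909, 9901 and 9650 normalised reads in A, against 8782, 8134 and 8224 in B. Its libraries were close together within A and clear of B, for a log2 ratio of 0.23 (standard error 0.070; authors' deposited table, DESeq adjusted p = 0.488). GINS1, a subunit of the GINS complex, was on the other side with 2120, 1991 and 1668 in A, against 2127, 2376 and 2489 in B. Library 1 of A was almost level with library 1 of B, and the log2 ratio was -0.27 (standard error 0.10; authors' deposited table, DESeq adjusted p = 0.456).

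The promoters of RRM2, CHAF1A and GINS1 are printed because these are genes among those of smallest p for which the RefSeq table has an entry, and because they differ in the letters that E2F and CCAAT-binding factors are known for. Each runs from 250 bases before to 30 bases after the start of transcription on the plus strand, 5′ to 3′, in build GRCh38.p14 (RefSeq). RRM2 is at chr2:10122489-10122768, CHAF1A at chr19:4402390-4402669 and GINS1 at chr20:25407423-25407702. Capitals mark the E2F forms TTTGGCGC and TTTCCCGC and the box CCAAT, each on either strand, counted separately whether or not they overlap.
RRM2: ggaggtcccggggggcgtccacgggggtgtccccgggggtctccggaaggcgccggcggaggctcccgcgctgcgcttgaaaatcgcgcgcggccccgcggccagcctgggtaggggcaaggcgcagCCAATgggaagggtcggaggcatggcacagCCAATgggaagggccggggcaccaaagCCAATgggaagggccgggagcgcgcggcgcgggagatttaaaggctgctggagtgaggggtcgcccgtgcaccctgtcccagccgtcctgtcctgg
CHAF1A: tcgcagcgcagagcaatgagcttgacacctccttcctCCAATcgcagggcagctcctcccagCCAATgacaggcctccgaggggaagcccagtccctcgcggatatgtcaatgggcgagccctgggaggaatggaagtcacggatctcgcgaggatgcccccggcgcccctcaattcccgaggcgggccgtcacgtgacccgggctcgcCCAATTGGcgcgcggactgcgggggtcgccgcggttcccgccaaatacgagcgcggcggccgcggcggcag
GINS1: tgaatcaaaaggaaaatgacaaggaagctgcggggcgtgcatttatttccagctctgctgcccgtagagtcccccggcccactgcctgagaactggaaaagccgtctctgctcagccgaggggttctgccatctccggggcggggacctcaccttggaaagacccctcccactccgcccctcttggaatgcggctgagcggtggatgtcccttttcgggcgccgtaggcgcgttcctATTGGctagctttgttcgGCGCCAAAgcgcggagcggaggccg

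The RRM2 promoter holds 3 CCAAT boxes, each followed by the same bases, and neither E2F form. CHAF1A holds 4 CCAAT matches, of which a pair overlaps on opposite strands, and neither E2F form, while GINS1 holds 1 CCAAT match and 1 E2F form just past the start. Searched from 250 bases before to 50 after the start, 17 of the 36 genes with a RefSeq promoter held either E2F form, or 47.2%. The share was 5.58% of 5463 genes with a mean of 1000 or more and 2.75% of all 27305 genes with a promoter. CCAAT was in 58.3% of the 36, in 45.3% of the genes with a mean of 1000 or more and in 39.7% of all. The 17 genes with an E2F form had a median log2 ratio of 0.10, with 13 above 0, and the 19 without one had 0.14, with 16 above 0. A match is a run of letters and not a bound site. Only these exact E2F forms were searched, so a promoter without one, such as that of CHAF1A, may still hold an E2F site of other letters.

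The licensing genes were the group with the most members on one side among those with over 5 genes. Of 11, 10 had a log2 ratio above 0, the median was 0.14 and none was called. MCM2 to MCM7, the 6 subunits of the ring, all had ratios above 0, with a median of 0.20 and a range of 0.01 to 0.34. MCM2 had 25571, 26167 and 28307 normalised reads in A, against 24060, 22536 and 22088 in B, with no overlap (log2 ratio 0.22, standard error 0.072). MCM4 averaged 38845 in A and 33803 in B (log2 ratio 0.20), and MCM7 averaged 31099 in A and 27241 in B with overlapping libraries. MCM3 averaged 21438 in A and 19894 in B without overlap. MCM6 had the lowest ratio of the ring, with 8738 in A and 8692 in B, a log2 ratio of 0.01. After a correction for GC content MCM6 was at 0.06 and MCM3 at 0.07. On that scale MCM7 was at 0.14, MCM2 at 0.16 and MCM5 at 0.30.

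The ring holds 1 copy of each subunit, but the RNA levels were unequal. Per kb, MCM7 RNA was 3.62, 4.05 and 4.68 times that of MCM6 in A, against 4.06, 3.36 and 3.40 times in B. For MCM5 the ratio to MCM6 was 2.66, 3.03 and 3.46 in A, against 2.85, 2.18 and 2.21 in B. MCM3 varied less, with 2.28, 2.38 and 2.39 in A, against 2.25, 2.14 and 2.18 in B. The ratios of MCM5 and MCM7 were highest in library 3 of A and, within B, in library 1. They were not corrected for GC content, which was 43.1% for MCM6, 56.6% for MCM5 and 57.6% for MCM7.

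Among the loaders of the ring, CDT1 had 6094, 6482 and 7708 normalised reads in A, against 6499, 5021 and 4879 in B. Its log2 ratio of 0.31 was among the highest of the 41, but library 1 of B lay above 2 libraries of A and the standard error was 0.12. GMNN, which encodes geminin, the inhibitor of CDT1, averaged 4255 in A and 3914 in B. ORC1 and ORC6 are subunits of the origin recognition complex. ORC1 averaged 4117 in A and 3731 in B without overlap, and ORC6 averaged 2141 in A and 2181 in B with overlap. CDC6 averaged 7178 in A and 6725 in B, and its libraries did not overlap, though the gap between them was small.

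Helicase activation and S phase entry genes pointed both ways. Of 9, 6 had a log2 ratio above 0, with a median of 0.10. The cyclin E genes were on opposite sides: CCNE1 had 1869, 1997 and 1871 normalised reads in A, against 1717, 1621 and 1530 in B, a log2 ratio of 0.24 (standard error 0.081). Unlike CCNE2, it was higher in each library of A. CDC7, the kinase that acts on the loaded ring, averaged 2765 in A and 2567 in B, and its libraries overlapped. The 4 GINS subunits had log2 ratios of -0.27 (GINS1), 0.13 (GINS2), -0.03 (GINS3) and 0.09 (GINS4), and only GINS1 had libraries that did not overlap. CDC45, the helicase cofactor, averaged 4251 in A and 3914 in B, and MCM10, which helps to start the fork, averaged 4873 in A and 4555 in B.

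Polymerase and primase genes had a median log2 ratio of 0.17, with 5 of 6 above 0. POLA2 is the regulatory subunit of polymerase alpha and had 5769, 6109 and 6608 normalised reads in A, against 5629, 5054 and 5065 in B (log2 ratio 0.23, standard error 0.083). PRIM1, the catalytic subunit of primase, had 1509, 1427 and 1445 in A, against 1224, 1263 and 1275 in B (log2 ratio 0.22, standard error 0.076). Neither gene had overlapping libraries, and PRIM1 varied little within a condition. POLE, the catalytic subunit of polymerase epsilon, averaged 10088 in A and 8830 in B without overlap, whereas its partner POLE2 averaged 1050 in A and 1144 in B, lower in each library of A. POLD1, the catalytic subunit of polymerase delta, averaged 7601 in A and 6887 in B, and POLA1, the catalytic subunit of polymerase alpha, averaged 6105 in A and 5681 in B, both with overlap.

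The clamp, clamp loader, single-strand binding and lagging strand genes were the closest to 0, with a median log2 ratio of 0.06 and 6 of 9 above 0. PCNA averaged 20285 in A and 19958 in B, a log2 ratio of 0.02. The 4 clamp loader subunits among these genes, RFC2, RFC3, RFC4 and RFC5, had log2 ratios of 0.06, -0.12, -0.02 and 0.11, with a median of 0.02. RFC1, a further subunit counted with the other genes of the pathway, had 0.19. In RFC3 and RFC4 library 3 of A was the lowest of all. RFC3 had 4717, 4340 and 3264 normalised reads in A, against 4213, 4530 and 4665 in B. RPA1, the large subunit of the single-strand binding protein, averaged 17467 in A and 18277 in B, and RPA2 averaged 4126 in A and 3784 in B. LIG1, the ligase that seals Okazaki fragments, averaged 7332 in A and 6700 in B with overlap.

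Nucleotide supply genes all had ratios above 0 (4 of 4, median 0.14). TK1, thymidine kinase, had 5674, 5681 and 6219 normalised reads in A, against 5647, 4680 and 4930 in B (log2 ratio 0.20, standard error 0.088), and library 1 of A was only just above library 1 of B. RRM1, the large subunit paired with RRM2, averaged 16568 ± 1687 in A and 15740 ± 711 in B (SD, n = 3 each), with overlap. TYMS, thymidylate synthase, averaged 9378 in A and 8840 in B. CHAF1B, the partner of CHAF1A in chromatin assembly, averaged 2010 in A and 1747 in B, a log2 ratio of 0.20 with overlapping libraries.

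**Figure D3:**
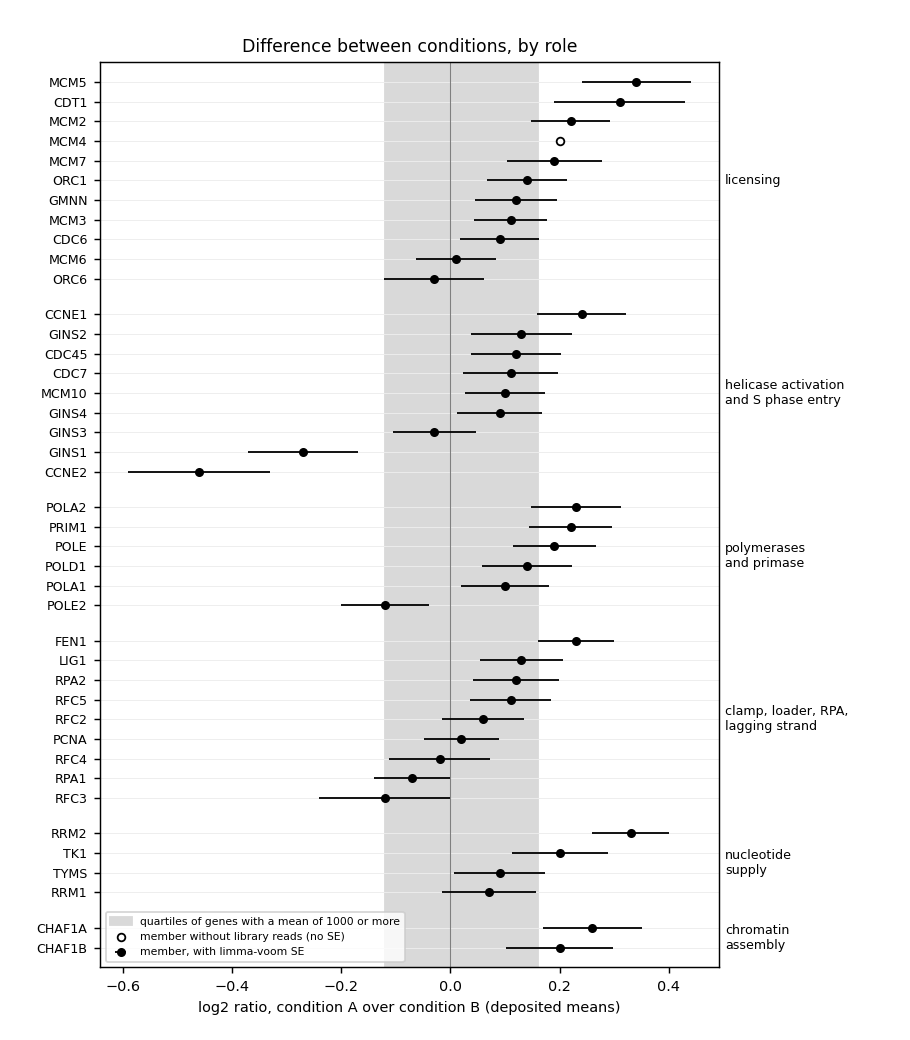
Log2 ratio of A over B of the 41 DNA replication genes by role, with the limma-voom standard error as bars; the open point, MCM4, has none, and the grey band spans the quartiles of genes with a mean of 1000 or more. Most points lie right of 0, with MCM5 at 0.34 and RRM2 at 0.33, and CCNE2 at -0.46 and GINS1 at -0.27 lie left of the band.

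Transcript GC content moved with these differences. It ran from 36.9% (CCNE2) to 65% (POLD1) with a median of 48.2%. The 20 genes below that median had a median log2 ratio of 0.08, with 13 above 0, and the 21 at or above it had 0.19, with 20 above 0. Across 40 genes the log2 ratio had a Pearson correlation of 0.61 with GC content (Spearman 0.66), against 0.30 (Spearman 0.34) across 6710 genes with a mean of 1000 or more. The genes share the same 6 libraries, so these correlations are descriptions and carry no p.

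The same trend was present between libraries of one condition. Library 3 of A over its libraries 1 and 2 had a correlation with GC of 0.74 across the 40 genes and 0.68 across the 6710. Library 1 of B over its libraries 2 and 3 had 0.79 across the 40 and 0.73 across the 6710. Library 1 was the highest of B in 27 of 40 genes, or 67.5%, against 50.6% of genes with a mean of 1000 or more. For library 3 of A over libraries 1 and 2, CCNE2, the lowest in GC, had a log2 ratio of -0.40, POLD1, the highest in GC, had 0.12 and CDT1, with 64.9% GC, had 0.29.

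**Figure D4:**
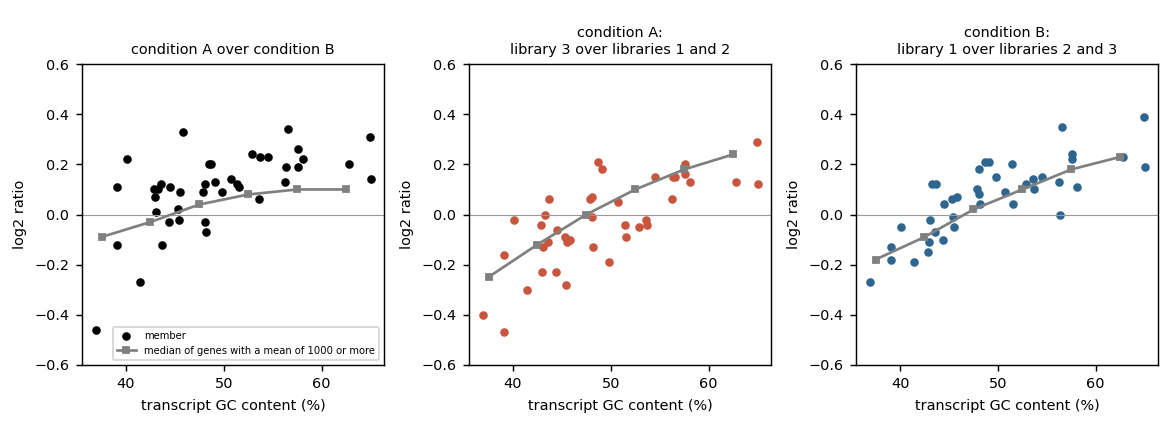
Log2 ratios of the DNA replication genes (points) against transcript GC content, for A over B and for single libraries against the others of their condition; grey squares are medians of genes with a mean of 1000 or more in bins of GC content, the outermost bins being open-ended. The points climb with GC in all 3 panels, with Pearson correlations of 0.61, 0.74 and 0.79 across 40 genes; the first panel also shows MCM4.

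After each library was corrected for its GC trend, an alternative chosen after the data were seen, the median log2 ratio was again 0.12 and 33 of 40 genes were above 0. Genes with a mean of 1000 or more then had a median of 0.04, with 3904 of 6710 above 0. The median standard deviation within a condition dropped to 0.059 after correction, against 0.075 before, on the log2 scale. A limma fit to the corrected values called 12 of 40 genes higher in A, or 30%, and 2 lower, against 18.6% higher and 12.1% lower among 6710 genes with a mean of 1000 or more. The 12 were RRM2, MCM5, CHAF1A, FEN1, CCNE1, POLA2, PRIM1, MCM2, TK1, CDT1, GMNN and CDC7, and the 2 were CCNE2 and GINS1. RRM2 had a corrected log2 ratio of 0.34 (standard error 0.052; limma adjusted p = 0.00173), and CCNE2 had -0.33 with 0.058 (limma adjusted p = 0.0032). CDC7 had 0.21 with 0.055 (limma adjusted p = 0.0191), where the uncorrected value was 0.11. The correction was fitted on the libraries that were then tested, so these p-values do not carry its own error, and they are adjusted over fewer genes than those of the deposited table.

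Other genes of the pathway, 49 with a row, had a median log2 ratio of 0.05, with 26 above 0 and 0 called lower. After GC correction 12 of the 49 were higher and 3 lower, with a median of 0.04. Among those of smallest p were CDC25A, a phosphatase that activates cyclin-dependent kinases (log2 ratio 0.29), ASF1B, a histone chaperone (0.28), and MCM9, a relative of the MCM ring (-0.28), none of which passed the deposited test. The 38 mitotic genes had 0 called and a median of 0.05, with 25 above 0, and after GC correction 10 of the 37 fitted were higher and 1 lower, with a median of 0.06. The corrected fit thus called genes higher in these lists too, beside 12 of the 40 genes described here, and the lists were not tested against each other. It called 18.6% higher and 12.1% lower among 6710 genes with a mean of 1000 or more. At an unadjusted p of 0.05, the authors' deposited table has 5 of the 38 mitotic genes higher and 1 lower. Among genes with a mean of 1000 or more, 18.9% passed that p in either direction.

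Among the E2F and RB family genes, 19 rows in all, E2F7 and E2F2 rose and E2F5 fell in A. E2F7, an atypical repressor E2F, had 1709, 1738 and 1745 normalised reads in A, against 1124, 1375 and 1296 in B (log2 ratio 0.45, authors' deposited table, DESeq adjusted p = 0.0114). E2F2, an activator E2F, had 9999, 10322 and 11248 in A, against 8324, 7826 and 7881 in B (log2 ratio 0.39, authors' deposited table, DESeq adjusted p = 0.0398). E2F5, a repressor E2F, had 1849, 2067 and 2035 in A, against 2372, 2711 and 2653 in B (log2 ratio -0.38, authors' deposited table, DESeq adjusted p = 0.0468). None of the 3 had overlapping libraries. After GC correction 4 of the 17 genes of the list fitted were higher and 2 lower. In that fit 29.5% of all 10753 genes were called in either direction.

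Clustered histone genes, whose RNA is made in S phase to package new DNA, had larger ratios. Of 64 rows, the authors' deposited table has 16 higher and 0 lower, against 2.54% of all rows called. Some of the 16 had a mean below 50, such as HIST1H3B with 48.09 in A and 15.38 in B. The 20 histone rows with a mean of 50 or more had a median log2 ratio of 0.71. By an unadjusted p of 0.05, 21 of the 64 were higher and 1 lower, against 1494 higher and 1837 lower of all 34675 rows. Many of these genes are near-identical copies that can share reads, and some also make polyadenylated RNA. After GC correction 9 of the 15 histone genes fitted were higher and 0 lower, with a median of 0.52. The share of all 10753 genes called in that fit was 29.5%. The replication genes had a median of 0.12 beside these, and the difference between the lists was not tested.

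**Figure D5:**
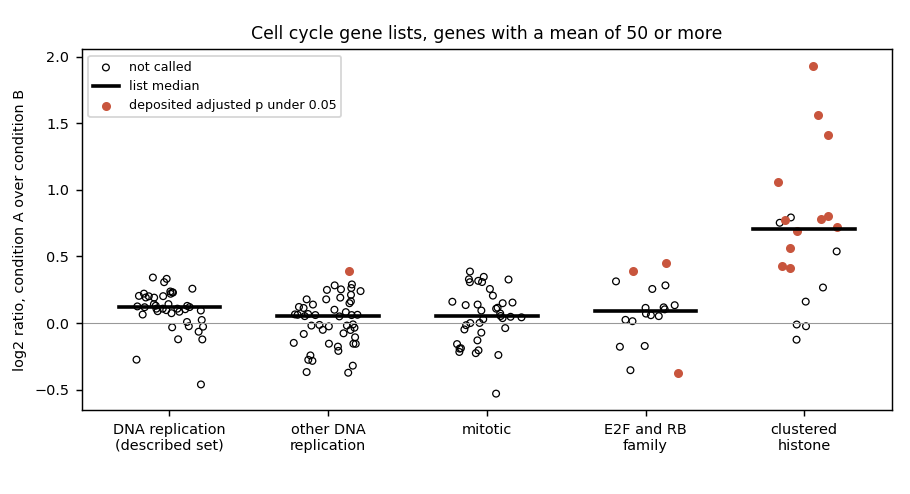
Log2 ratio of A over B for genes with a mean of 50 or more in 5 cell cycle lists, with the list median as a bar and genes called in the authors' deposited table filled. The medians are 0.12 for the described DNA replication genes, 0.05, 0.05 and 0.09 for the next 3 lists and 0.71 for clustered histone genes.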

How the data were processed

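Per the submitters' processing notes, STAR, HTSeq 0.5.4p5 and DESeq 1.14.0 were used on hg19; their settings and strand use are stated in no source used here, so overlapping and antisense genes cannot be told apart. Per the file headers, the deposited means are a signal: normalised reads, that is, reads over a size factor per library. The deposited fold and log2 ratio are B over A and are given here with the sign turned. The deposited p-value was adjusted by the authors over all rows (Benjamini-Hochberg, as recomputed). A deposited hg19 track gave coding intervals, merged per gene for coding length, and its deposited score was not used.

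The adjusted p of the authors' deposited table gave the calls, since the deposited tables hold 0 columns of values per sample. Each mean is a sum of 3 whole reads over size factors, printed with 15 digits, so reads per library were solved for: 34512 of 34675 rows gave 1 solution. Above a mean of 1500, each library had to lie within 0.7 to 1.4 times the mean of its condition, and means above 40000 were not searched. On simulated lower means 1500 of 1500 were right and 0 wrong, and on those in the highest range searched 375 of 400 were right and 0 wrong. The simulated means were made with the fitted size factors, so the simulation did not check these factors. Size factors were 1.21, 1.03 and 0.768 in A and 1.09, 1.05 and 0.951 in B. Libraries are numbered by falling size factor and match no replicate number of the labels.

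limma 3.58.1 (R 4.3.3) fitted voom to genes with a mean of at least 10. It was checked on simulated data with larger changes than those of the members and without a GC trend, so calls at the members' ratios were not checked. GC content was that of the longest coding GENCODE 29 transcript, and the GC correction was a lowess curve (span 0.3) per library over genes with a mean of 50 or more, tested with a trend on log2(reads + 1). The text covers all members by role, with values per library for the 12 of smallest p and, of other lists, the called genes (at least the 4 of smallest p for the replication list). Some called genes of these lists and of the markers are not reported here. CDT1 and RFC3 were picked for library values after these were seen. Members and lists were chosen with earlier results of these data known. Python 3.11.15 was used.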

Additional observations from a re-analysis of the deposited data

How the results depend on the processing

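The deposited test called 0 members higher and 0 lower, and these counts moved with the test. RRM2 alone was called at a deposited adjusted p of 0.1 (1 higher, 0 lower), and 1 was also called with the deposited p adjusted over genes with a mean of at least 50 or of at least 10; at 0.01 none was. limma-voom and limma with a trend at a pseudocount of 1 or 0.5 called 1 higher and 1 lower, as did scaling to total recovered reads. Scaling to the 75th percentile called 3 higher and 0 lower, and voom with no filter 2 higher and 1 lower. Of all genes tested, 8.93% were called under the 75th percentile scaling and 4.08% with no filter. Total scaling called 9.59% of them, and limma-voom and the trend fits 9.15% to 9.48%. With any 1 library left out, 0 to 3 were called higher and 0 to 1 lower: none without library 2 of condition A or without library 2 or 3 of condition B, while 2245 and 372 genes in all were called without libraries 1 and 2 of condition A. The share called of the 17450 genes in the fits without 1 library ran from 2.13% (without library 2 of condition A) to 12.9% (without library 1 of condition A). After GC correction 12 were higher and 2 lower, on smaller spreads and fewer genes tested. That fit called 29.5% of its 10753 genes. The median log2 ratio of 0.12 stayed between 0.10 and 0.14 without any 1 library and was 0.13 and 0.07 under the 75th percentile and total scalings, which shifted every ratio by 0.02 and -0.04. Genes with all libraries of condition A above those of B numbered 11 to 22 under the other scalings and the correction, against 16, and those below 2 to 4, against 3. The share of all genes with such a separation was not counted under these scalings or the correction, so these counts of separated genes have no background beside them. Of 400 values of single members, 11 in 6 members changed sign, all close to 0: RFC3 0.02 (range over the fits without 1 library -0.24 to 0.02) and RFC4 0.06 (-0.10 to 0.06) without library 3 of condition A, GINS3 0.00 (-0.06 to 0.00) without library 2 of condition A, PCNA -0.02 under total scaling and -0.00 without library 1 of condition A, MCM6 -0.03 under total scaling and -0.04 and -0.00 without library 1 of condition A or of condition B, and ORC6 0.05 and 0.01 without library 3 of condition A or of condition B (-0.09 to 0.05 over the fits without 1 library) and 0.00 after GC correction. The cause of these changes was not tested. No paired analysis was possible because the recovered libraries carry no replicate number. Depth is no narrow limit here, since the 40 members with recovered reads had at least 828 reads in each library.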

Other observations

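The balance of the cyclin E genes differed between the libraries of the conditions. CCNE1 had 1.19, 1.41 and 1.65 normalised reads for each read of CCNE2 in condition A, against 1.03, 0.82 and 0.75 in condition B, so CCNE1 was the higher of the pair in every library of condition A and in library 1 of condition B. After GC correction the ratio was 1.29, 1.37 and 1.30 in condition A, against 0.96, 0.92 and 0.86 in condition B, so the conditions stayed apart and the spread within each was smaller. Both proteins activate CDK2 at S phase entry. The pair was picked after its values were seen and the ratio was not tested.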
